A study of Homo sapiens with 24 samples.

Results

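Nuclear proline tRNAs were followed across knockouts of 3 dihydrouridine synthases in HEK293T cells, a human embryonic kidney line. The members were the anticodon families Pro-AGG, Pro-CGG and Pro-TGG and every nuclear entry named as a proline isodecoder, that is, a tRNA of its own mature sequence. These were 3 of 74 entries at the anticodon level (49 of them nuclear) and 7 of 286 at the isodecoder level (261 nuclear), and mitochondrial proline tRNA was left out. The study held 24 libraries in 8 groups of 3, made from gel-isolated tRNA of untreated cells with E. coli tRNAs added as spike-ins. The groups were DUS1L KO (clones labelled 1-9 and 2-4), DUS2L KO (1-8 and 2-1), DUS3L KO (1-5 and 2-8) and wild-type cells in 2 sets. Each clone is a single knockout line, and the labels do not say if its 3 libraries were separate cultures, and p-values then cover no more than library-to-library spread, possibly technical.

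Proline tRNAs carry proline to the ribosome and decode the codons that start with CC. In human cells the first anticodon base of the AGG family is deaminated to inosine, which widens the set of codons it reads. Dihydrouridine is a reduced uridine without base stacking that keeps tRNA loops flexible. In human tRNA, DUS1L is known to make it at positions 16 and 17 and DUS2L at position 20, all in the D loop, and DUS3L at position 47 in the variable loop.

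The sequences below, of 2 of the 7 isodecoders, show the bases at the positions named above and how little separates these 2, which are of different families. Whether they carry dihydrouridine was not measured. Sequences of the other isodecoders could not be read from the reference used, among them all that passed in both clones of a knockout. Capitals mark the base at position 20, the anticodon (positions 34 to 36) and the base at position 47, in that order. They were taken from reference sequence of GRCh38, for tRNA-Pro-CGG-1 on chromosome 17 from 8222833 to 8222904 (minus strand, inside an exon of the long non-coding RNA LINC00324 and read from its GENCODE transcript) and for tRNA-Pro-TGG-3 on chromosome 14 from 20684016 to 20684087 (plus strand, inside the RefSeq promoter window of ANG).
tRNA-Pro-CGG-1: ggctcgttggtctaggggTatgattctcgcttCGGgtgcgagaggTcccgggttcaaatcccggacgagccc
tRNA-Pro-TGG-3: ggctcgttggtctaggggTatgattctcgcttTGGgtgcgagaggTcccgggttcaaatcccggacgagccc
Both are 72 bases long and differ at 1 base, C33T counted from 1 at the 5′ end, which is position 34 in the usual tRNA numbering and the first base of the anticodon. A read that does not cover that base cannot be told apart between these 2 isodecoders. Both have a T at positions 20 and 47. Only 1 base, a G, lies between position 15 and the G pair at positions 18 and 19, so these tRNAs have no uridine at position 16 or 17. A further copy of tRNA-Pro-TGG-3 on chromosome 16 (3188094 to 3188165, in the promoter window of OR1F1) had 0 differences from the one shown.

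All 7 isodecoders matched a RefSeq tRNA gene of 72 bases, and their names covered all 20 RefSeq tRNA-Pro genes. The AGG family was made of tRNA-Pro-AGG-1-1, with 1 gene (chromosome 16, 3191989 to 3192060, in an intron of the antisense RNA AJ003147.2), and tRNA-Pro-AGG-2-4, whose isodecoder has 8 genes on 6 chromosomes and which is named for the one at chromosome 11, 76235513 to 76235584. The CGG family was made of tRNA-Pro-CGG-1-1, with 3 genes (one on chromosome 1, 167714725 to 167714796), and tRNA-Pro-CGG-2-1, with 1 gene (chromosome 6, 27091742 to 27091813). The TGG family held tRNA-Pro-TGG-1-1 (chromosome 14, 20633006 to 20633077) and tRNA-Pro-TGG-2-1 (chromosome 11, 76235825 to 76235896), with 1 gene each, and tRNA-Pro-TGG-3-4, with 5 genes on 3 chromosomes (one on chromosome 16, 3184133 to 3184204). The genes named for tRNA-Pro-AGG-2-4 and tRNA-Pro-TGG-2-1 lay 240 bases apart. Apart from tRNA-Pro-AGG-1-1, the genes that give these entries their names overlapped no GENCODE gene.

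The authors' deposited tables held, for each knockout, the mean of normalised counts, the log2 fold change of clone #1 and clone #2 over wild type, and its p-value, with no value per library. Which labelled clone is #1 is not in the headers. Libraries of tRNA do not measure the knocked-out genes, and the amount of a tRNA and the efficiency of copying it into a library cannot be told apart. Levels below are normalised counts per library recovered from these values for each group, an error is the standard error (SE) recovered from fold change and p-value, and a tRNA passed at a Benjamini-Hochberg adjusted p under 0.05 over the whole table. Means summed over the anticodon table came to 1278870 normalised counts for DUS1L, 2649830 for DUS2L and 817514 for DUS3L. Recovered wild-type levels of the DUS2L and DUS1L anticodon tables kept a near-constant ratio (median 2.27, SD 0.022 on the log2 scale over 72 rows), against an SD of 1.36 between the DUS3L and DUS1L tables, so that both DUS1L and DUS2L were compared with the same wild-type libraries and DUS3L with others. The median nuclear family was at -1.10 and -0.45 in DUS2L clones #1 and #2, at -0.19 and 0.28 in DUS3L clones and at -0.04 and -0.05 in DUS1L clones, so changes are also given relative to it where this alters a call.

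Proline tRNAs were a minor part of the nuclear pool. They made up 0.914% and 1.47% of nuclear normalised counts in DUS1L clones #1 and #2, against 0.621% in wild type. In DUS2L clones the shares were 0.374% and 0.280%, against 0.618% in the same wild-type libraries. DUS3L clones held 0.0842% and 0.103%, against 0.196% in the other wild-type set. Proline shares were thus above wild type in both DUS1L clones and below it in both clones of the other 2 knockouts. These shares carry no test and move with the most abundant family, as Gly-GCC alone was 73.9% and 67.8% of nuclear counts in DUS3L clones and 55.6% in their wild type, and 28.2% and 32.6% in DUS2L clones against 9.16% in theirs.

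**Figure D1:**
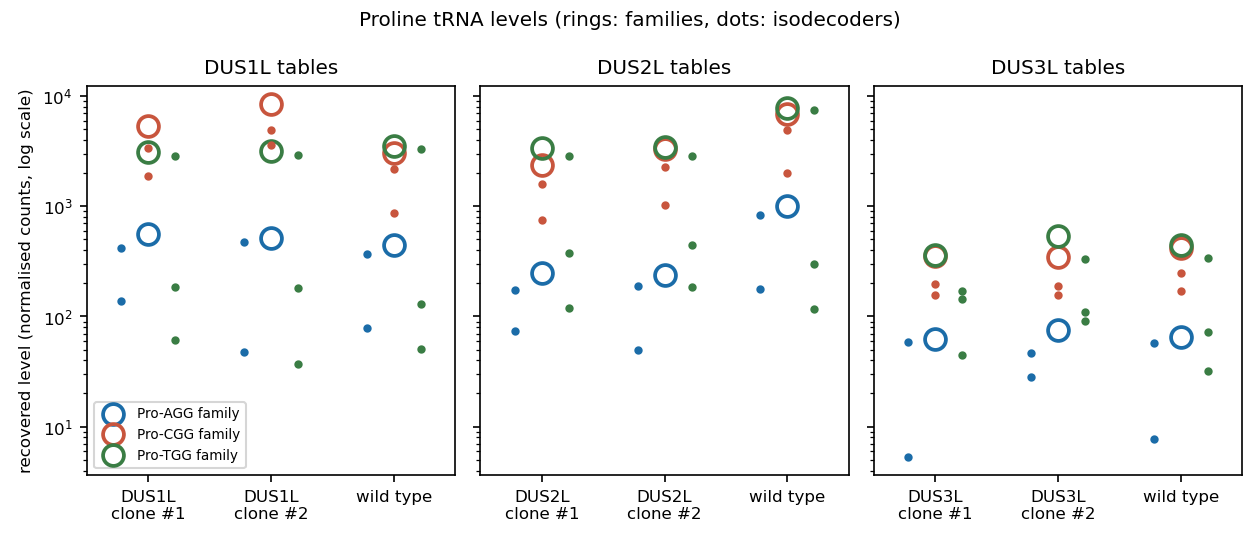
Recovered levels of proline families (rings) and isodecoders (dots, left to right within a group AGG, CGG and TGG) in normalised counts on a log axis, by knockout clone and wild type, without error bars since no values per library were used. In the DUS2L tables Pro-AGG stands at 248 and 239 in the clones, below 1012 in wild type. The tables were scaled separately, so heights are read within a panel.

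Loss of DUS2L, the position 20 enzyme, was the knockout in which proline families passed the test. Pro-AGG fell in both clones, to 248 and 239 normalised counts in clones #1 and #2, against 1012 in wild type. The authors' deposited table gave Pro-AGG -2.03 ± 0.57 in clone #1 (adjusted p = 0.0029) and -2.08 ± 0.57 in clone #2 (adjusted p = 0.0015), about 0.246 and 0.236 of the wild-type level. Values of the clones were close to each other and well below wild type.

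Pro-CGG stood at 2360 and 3320 normalised counts in DUS2L clones #1 and #2, against 6885 in wild type. In the authors' deposited table this was -1.54 ± 0.65 in clone #1, just past the threshold (adjusted p = 0.0497), and -1.05 ± 0.65 in clone #2, which did not pass (adjusted p = 0.178). Pro-TGG stood at 3365 and 3466 normalised counts in the clones, against 7868 in wild type. The authors' deposited table gave -1.23 ± 0.62 and -1.18 ± 0.62 for Pro-TGG (adjusted p = 0.0972 and 0.115), so that neither clone passed, with 95% intervals from -2.45 to -0.0017 and from -2.41 to 0.041. All 3 families were below wild type in both clones, 2 of the 3 past the threshold in clone #1 and 1 in clone #2.

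Lower families were common in these clones. Of all entries tested, 26.8% were called lower in clone #1 and 25.4% in clone #2, and 18.3% in both clones, so the proline counts are to be read against a general shift down. Relative to the median nuclear family, Pro-AGG was at -0.93 in clone #1, where the call ended (adjusted p = 0.248), and at -1.63 in clone #2, where it held (adjusted p = 0.0148). With the mean of the spike-ins as reference it was at -1.76 and -1.62 and passed in both (adjusted p = 0.0107 and 0.0162). The 3 spike-ins were far apart, from -0.92 to 0.29 in clone #1 and from -1.88 to 0.25 in clone #2. No p-value with the spike-ins as reference includes their spread. The Pro-CGG call of clone #1 ended under both references, at -0.45 (adjusted p = 0.775) and -1.28 (adjusted p = 0.139). From the lowest up, Pro-AGG ranked 6 and 3 of 49 nuclear families in the clones, Pro-CGG 13 and 17, and Pro-TGG 21 and 14.

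**Figure D2:**
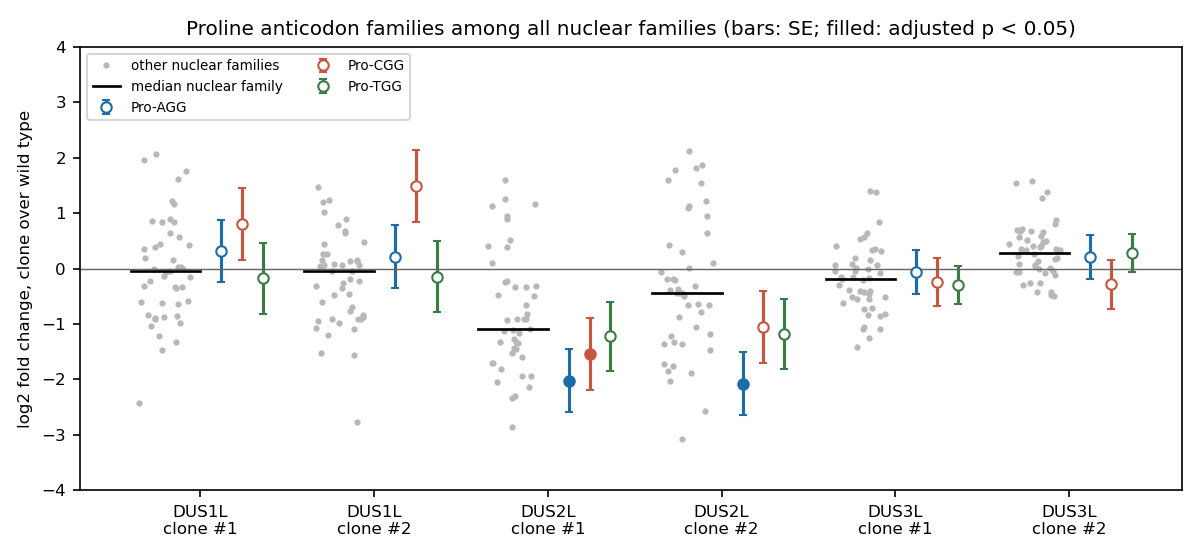
Log2 fold change of each clone over wild type for the 3 proline families (coloured points with SE bars, filled where the adjusted p was under 0.05) beside the other nuclear families (grey) and the median nuclear family (black line), with 2 grey points beyond an absolute value of 4 not drawn. Pro-AGG lies near -2 in both DUS2L clones, and all 3 lie within 0.3 of 0 in DUS3L clones. In DUS1L clone #2 Pro-CGG is the highest family at 1.49, with Ala-CGC among the grey points at 1.48.

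Isodecoders of the DUS2L knockouts showed 2 that fell in both clones and 1 that rose in both. In clone #1, 4 of 7 passed as lower and 1 as higher, where 37.3% of all entries were called lower and 16.7% higher. In clone #2 these were 2 and 1 of 7, where 30.8% were lower and 21.4% higher. Lower in both clones were 26.8% of all entries, and higher in both 16.7%. The counts of 2 and 1 of 7 in both clones were thus near the shares of all entries. The median proline isodecoder was at -1.38 and -1.09, beside -1.02 and -0.55 for all nuclear isodecoders.

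Both AGG isodecoders fell. tRNA-Pro-AGG-1-1 had 174 and 189 normalised counts in DUS2L clones #1 and #2, against 834 in wild type. The authors' deposited table placed tRNA-Pro-AGG-1-1 at -2.26 ± 0.66 and -2.14 ± 0.66 (adjusted p = 0.00197 and 0.00339), and the call of clone #1 ended relative to the median nuclear isodecoder (-1.24, adjusted p = 0.139). tRNA-Pro-AGG-2-4, whose isodecoder has 8 genes, had 74.1 and 50.0 normalised counts in the clones, against 177 in wild type. Its values in the authors' deposited table were -1.26 ± 0.51 and -1.83 ± 0.50 (adjusted p = 0.0278 and 0.000962). Relative to the median nuclear isodecoder it was at -0.24 in clone #1 (adjusted p = 0.741) and at -1.27 in clone #2 (adjusted p = 0.0274), and with the spike-ins the call of clone #1 ended as well (-0.99, adjusted p = 0.0967).

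The single-gene tRNA-Pro-TGG-1-1 went the other way. It had 381 and 444 normalised counts in DUS2L clones #1 and #2, against 117 in wild type. The authors' deposited table gave tRNA-Pro-TGG-1-1 1.71 ± 0.43 and 1.93 ± 0.42 (adjusted p = 0.000257 and 2.68e-05), 3.26-fold and 3.80-fold higher. Both calls held relative to the median nuclear isodecoder, at 2.73 and 2.48, and to the spike-ins, at 1.97 and 2.39. It made up 11.3% and 12.8% of the TGG family in the clones, against 1.48% in wild type, so that the family sum was still set by tRNA-Pro-TGG-2-1.

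tRNA-Pro-TGG-2-1 held 2866 and 2838 normalised counts in the DUS2L clones, against 7455 in wild type. In the authors' deposited table it was at -1.38 ± 0.69 and -1.39 ± 0.69, short of the threshold in both (adjusted p = 0.0784 and 0.0760). tRNA-Pro-TGG-3-4 had 119 and 184 normalised counts in the clones, against 297 in wild type, and fell in clone #1 only (-1.32 ± 0.41, adjusted p = 0.00344, in the authors' deposited table). For clone #2 the authors' deposited table had -0.69 ± 0.40 (adjusted p = 0.135). The clones were not shown to differ from each other in this isodecoder by the test of the difference (0.63 ± 0.57, adjusted p = 0.982). Relative to the median nuclear isodecoder it was at -0.29 and -0.14, and the call of clone #1 ended.

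The CGG isodecoders were below wild type in both clones. tRNA-Pro-CGG-2-1 had 1607 and 2297 normalised counts in DUS2L clones #1 and #2, against 4896 in wild type. It passed in clone #1 only, at -1.61 ± 0.72 in the authors' deposited table (adjusted p = 0.0487), a call that ended relative to the median nuclear isodecoder and to the spike-ins. tRNA-Pro-CGG-1-1 had 754 and 1023 normalised counts, against 1988 in wild type, and passed in neither clone (-1.40 ± 0.65 and -0.96 ± 0.65 in the authors' deposited table). Its share of the family was 31.9% and 30.8% in the clones, against 28.9% in wild type.

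**Figure D3:**
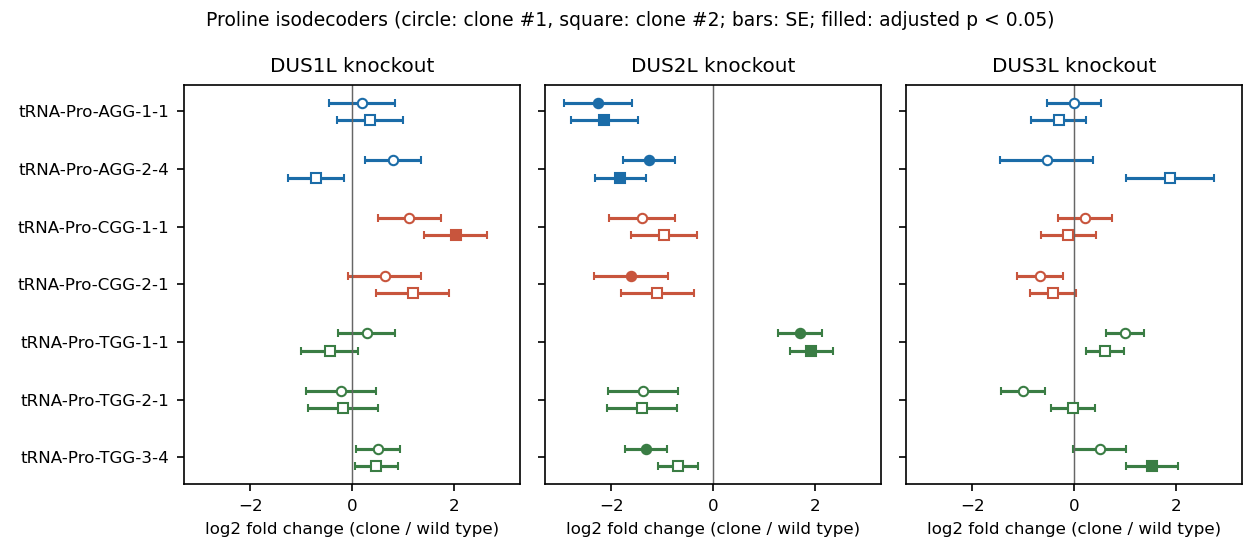
Log2 fold change over wild type of the 7 proline isodecoders in clone #1 (circles) and clone #2 (squares) of each knockout, with SE bars and filled symbols where the adjusted p was under 0.05. In the DUS2L panel tRNA-Pro-TGG-1-1 is at 1.71 and 1.93, while the other 6 isodecoders are below 0 in both clones.

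In the DUS1L knockouts no proline family passed in either clone. By the authors' DESeq2 p-values, 0 of 3 passed at the adjusted threshold, where 5.71% of all entries were called in clone #1 and 0% in clone #2, and at an unadjusted p under 0.05 the counts were 0 and 1, where 15.7% and 12.9% of all entries were. The exception without adjustment was Pro-CGG in clone #2. Pro-CGG had 5305 and 8544 normalised counts in clones #1 and #2, against 3051 in wild type. In the authors' deposited table it was at 0.80 ± 0.65 (adjusted p = 0.467) and 1.49 ± 0.65 (adjusted p = 0.215), the second being the highest of 49 nuclear families in that clone. The alanine family Ala-CGC lay close to it there, at 1.48. The Pro-CGG share of all proline counts was 59.2% and 69.9% in the clones, against 43.6% in wild type.

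Pro-AGG stood at 560 and 521 normalised counts in DUS1L clones, against 449 in wild type. The authors' deposited table gave 0.32 ± 0.57 and 0.21 ± 0.57 for Pro-AGG, with 95% intervals from -0.80 to 1.43 and from -0.90 to 1.33. Pro-TGG stood at 3098 and 3158 normalised counts, against 3501 in wild type, and had a fold change of -0.18 ± 0.64 and -0.15 ± 0.64 by the authors' deposited table. The Pro-AGG intervals include a 2-fold rise but not a 2-fold fall. Those of Pro-TGG, from -1.43 to 1.08 and from -1.40 to 1.10, include both. Changes inside these intervals could not be told from no change.

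One proline isodecoder passed in a DUS1L clone. tRNA-Pro-CGG-1-1 had 1903 and 3566 normalised counts in clones #1 and #2, against 870 in wild type. It rose in clone #2 by 2.04 ± 0.62 in the authors' deposited table (adjusted p = 0.0189), where 2.55% of all entries were called higher, and stood at 1.13 ± 0.62 in clone #1 (adjusted p = 0.201). By the authors' DESeq2 p-values 0 of 7 passed in clone #1, where 20.7% of all entries were called, and 0 of 7 had an unadjusted p under 0.05, where 30.2% of all entries did. The call of clone #2 held relative to the median nuclear isodecoder (2.23) and to the spike-ins (2.04), and the clones were not shown to differ by the test of the difference (0.91 ± 0.88, adjusted p = 0.828). Its family partner tRNA-Pro-CGG-2-1 had 3402 and 4978 normalised counts, against 2181 in wild type, without passing (0.64 ± 0.71 and 1.19 ± 0.71 in the authors' deposited table).

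The other 5 isodecoders lay between -0.70 and 0.81 in the DUS1L clones of the authors' deposited table. The widest gap between clones was that of tRNA-Pro-AGG-2-4, with 137 normalised counts in clone #1 and 48.0 in clone #2, against 78.1 in wild type. The difference of clone #2 minus clone #1 was -1.51 ± 0.78 (adjusted p = 0.353), and an adjusted p of 0.0429 once the wild-type spread that both clones share was left out. tRNA-Pro-TGG-1-1, which rose in the DUS2L clones, had 61.5 and 37.1 normalised counts in DUS1L clones, against 50.4 in wild type, and passed in neither.

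Since DUS2L and DUS1L clones had the same wild-type libraries, their mean fold changes were set against each other, with the library spread as error. This error counts the wild-type spread once for each knockout. As shared libraries cancel in the difference, it is too wide for the library spread. Pro-AGG averaged -2.05 over the DUS2L clones and 0.27 over the DUS1L clones, a difference of -2.32 ± 0.69 (adjusted p = 0.00705). Pro-CGG averaged -1.30 over DUS2L clones and 1.14 over DUS1L clones, a difference of -2.44 ± 0.80 (adjusted p = 0.0133). Pro-TGG averaged -1.20 over DUS2L clones and -0.16 over DUS1L clones. With the wide error that difference of -1.04 ± 0.77 did not pass (adjusted p = 0.338, 95% interval from -2.56 to 0.47). Without the wild-type spread its SE was 0.45 and it passed (adjusted p = 0.0377), with no share of all entries taken at that narrower error. Centred on the median nuclear family it was at -0.24 (adjusted p = 0.826, with the wide error). Of all anticodon entries 23.9% were called lower in this comparison and 1.49% higher, with the same wide error.

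Among isodecoders, with the same wide error, 5 of 7 were lower in DUS2L than in DUS1L clones and 1 was higher, where 26.1% of all entries were lower and 11.7% higher. Without the wild-type spread tRNA-Pro-TGG-2-1 passed as lower too (-1.19, adjusted p = 0.0254), again with no share of all entries taken at that error. tRNA-Pro-CGG-1-1 had the widest gap, at -2.76 ± 0.78 (adjusted p = 0.00189), and tRNA-Pro-TGG-1-1 was the higher one, at 1.89 ± 0.61 (adjusted p = 0.00705). With each knockout centred on its median nuclear entry, the differences of Pro-AGG (-1.52, adjusted p = 0.0953) and Pro-CGG (-1.64, adjusted p = 0.114) no longer passed, whereas those of tRNA-Pro-CGG-1-1 (-1.93, adjusted p = 0.0373) and tRNA-Pro-TGG-1-1 (2.72, adjusted p = 7.21e-05) did. Of the 5 isodecoders called lower, 1 was left when centred, since tRNA-Pro-AGG-1-1 (-1.64, adjusted p = 0.0968), tRNA-Pro-AGG-2-4 (-0.77, adjusted p = 0.374), tRNA-Pro-CGG-2-1 (-1.44, adjusted p = 0.203) and tRNA-Pro-TGG-3-4 (-0.67, adjusted p = 0.316) no longer passed. With the spike-ins as reference Pro-AGG passed (-1.86, adjusted p = 0.0374) and Pro-CGG did not (-1.99, adjusted p = 0.0563). There, 2 of the 5 lower isodecoders were left, tRNA-Pro-AGG-1-1 and tRNA-Pro-CGG-1-1, and tRNA-Pro-TGG-1-1 stayed higher. Shares of all entries were not taken when centred or with the spike-ins, so the counts left cannot be set against the whole table. These errors leave out the spread between clones, of which there were 2 a knockout.

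In the DUS3L knockouts, compared with the other wild-type set, no proline family passed in either clone. By the authors' DESeq2 p-values 0 of 3 passed, where 8.11% of all entries were called in clone #1 and 5.41% in clone #2, and 0 of 3 had an unadjusted p under 0.05 in either, where 20.3% and 10.8% of all entries did. Pro-AGG had 62.7 and 75.9 normalised counts in clones #1 and #2, against 65.7 in wild type. Pro-CGG had 354 and 345, against 420 in wild type. Pro-TGG had 359 and 536, against 442 in wild type. The authors' deposited table placed the 3 families between -0.30 and 0.28, with SEs from 0.34 to 0.44. Over all 3, the 95% intervals reached from -1.15 to 0.99.

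Isodecoders of the DUS3L clones were few in counts, with wild-type levels from 7.65 for tRNA-Pro-AGG-2-4 to 339 for tRNA-Pro-TGG-2-1. tRNA-Pro-TGG-3-4 had 45.1 and 91.9 normalised counts in clones #1 and #2, against 31.9 in wild type. It rose in clone #2 by 1.53 ± 0.51 in the authors' deposited table (adjusted p = 0.0254), where 10.6% of all entries were called higher, and was at 0.50 ± 0.52 in clone #1. Relative to the median nuclear isodecoder (1.31, adjusted p = 0.0807) and to the spike-ins (1.36, adjusted p = 0.0643) it did not pass. The clones were not shown to differ by the test of the difference (1.03 ± 0.73, adjusted p = 0.688).

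No isodecoder passed in DUS3L clone #1, by the authors' DESeq2 p-values, where 7.8% of all entries were called. At an unadjusted p under 0.05 there were 2 proline isodecoders, where 20.9% of all entries passed. tRNA-Pro-TGG-1-1 had 144 and 109 normalised counts in DUS3L clones, against 72.0 in wild type, and was at 1.00 ± 0.37 (adjusted p = 0.0689) and 0.60 ± 0.38 (adjusted p = 0.452) in the authors' deposited table. tRNA-Pro-TGG-2-1 had 169 and 335, against 339 in wild type, and was at -0.999 ± 0.43 (adjusted p = 0.147) and -0.02 ± 0.43 (adjusted p = 0.986) in the authors' deposited table. The makeup of the TGG family is given without a test. There, tRNA-Pro-TGG-1-1 was 40.1% and 20.4% of the family in the clones, against 16.3% in wild type.

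**Figure D4:**
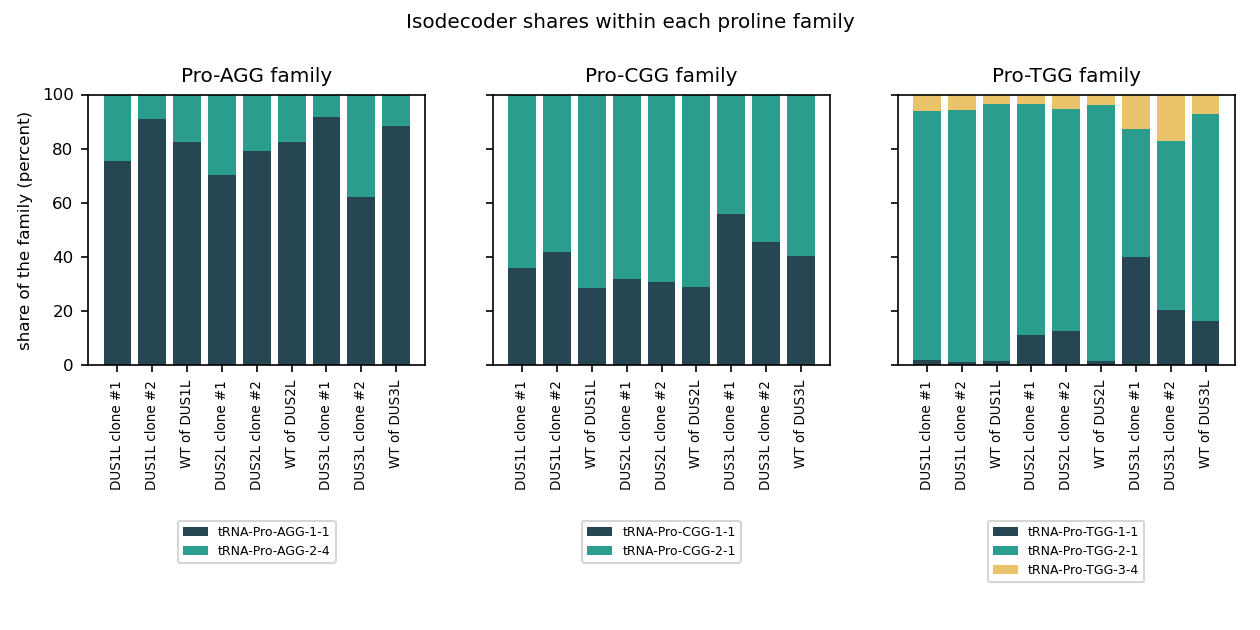
Share of each isodecoder in the recovered level of its family, in percent, for both clones and the wild type (WT) of each knockout's table, with no error bars since no values per library were used. In the TGG panel tRNA-Pro-TGG-1-1 takes 11.3% and 12.8% in DUS2L clones against 1.48% in their wild type, and 16.3% in the wild type of the DUS3L table.

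Between clones of a knockout no proline family or isodecoder differed past the threshold, by the difference of the authors' DESeq2 fold changes over its recovered SE. That SE counts the wild-type spread of both fold changes. As the clones share it and it cancels in the difference, the SE is too wide. By this SE 0% of all anticodon entries differed between DUS1L clones, 0% between DUS2L clones and 1.35% between DUS3L clones. Of all isodecoder entries these were 0%, 0.364% and 2.52%. With the shared wild-type spread left out, tRNA-Pro-AGG-2-4 differed between the clones of DUS1L and of DUS3L (adjusted p = 0.0429 and 0.0482). No share of all entries was taken with that narrower SE, so these calls cannot be set against the shares above. In DUS3L they rest on few counts, 5.27 and 28.4 in clones #1 and #2, against 7.65 in wild type.

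The makeup of the families differed between the wild-type sets. The families themselves held similar shares of all proline counts, with Pro-AGG at 7.08%, Pro-CGG at 45.3% and Pro-TGG at 47.6% in the wild type of the DUS3L table and at 6.42%, 43.6% and 50.0% in that of the DUS1L table. Within the families, tRNA-Pro-TGG-1-1 was 16.3% of TGG in the wild type of the DUS3L table and 1.44% in that of the DUS1L table, and tRNA-Pro-CGG-1-1 was 40.4% of CGG in the wild type of the DUS3L table and 28.5% in that of the DUS1L table. The level of tRNA-Pro-TGG-1-1 in the DUS2L clones, as a share of its family, thus lay between those of the wild-type sets. No test was made across tables scaled apart.

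The number of genes of an isodecoder and its share of the family were set side by side. In the wild type of the DUS1L table tRNA-Pro-AGG-2-4, with 8 genes, held 17.4% of the AGG family, tRNA-Pro-CGG-1-1, with 3 genes, 28.5% of CGG, and tRNA-Pro-TGG-3-4, with 5 genes, 3.69% of TGG. The single-gene entries tRNA-Pro-AGG-1-1, tRNA-Pro-CGG-2-1 and tRNA-Pro-TGG-2-1 held 82.6%, 71.5% and 94.9%, and the other single-gene entry, tRNA-Pro-TGG-1-1, held 1.44%. The order within a family was not fixed, as tRNA-Pro-CGG-1-1 held 55.7% of CGG in DUS3L clone #1. How reads that match several genes were counted is not given in the sources used here, and its part in these shares was not tested.

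Other nuclear families were ranked by how close their 6 log2 fold changes lay to those of each proline family, as the root mean square difference over the 6 clones of the authors' deposited tables. Among families of other amino acids, nearest to Pro-AGG were the alanine family Ala-TGC (0.37), the glutamate family Glu-CTC (0.54) and the serine family Ser-AGA (0.60). Pro-TGG lay between the last of these, at 0.56. The median over the 48 other families, proline included, was 1.04. Pro-CGG was nearest to Ala-CGC (0.21), Glu-CTC (0.62) and the arginine family Arg-CCG (0.65), with a median of 1.24. For Pro-TGG they were the cysteine family Cys-GCA (0.35), Ala-TGC (0.39) and Glu-CTC (0.39), with a median of 0.79. The other proline families were at rank 3 and 8 from Pro-AGG, 8 and 12 from Pro-CGG and 13 and 26 from Pro-TGG, so that each proline family had families of other amino acids closer to it than the other two. Clones of DUS1L and DUS2L share wild-type libraries, so the 6 values are not independent.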

How the data were processed

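Reads were processed by the authors. According to the submitters' processing notes, fastp, STAR, featureCounts, DESeq2 and hg38 were used, with no versions or roles. Trimming, scaling and the assignment of reads that match several tRNA genes are not given in the sources used here. Per the file headers, the deposited tables give the authors' mean of normalised counts, which is a non-negative signal, their log2 fold changes and their unadjusted p-values, with clones apart and 0 columns of values per library.

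Benjamini-Hochberg adjustment of these p-values ran over each whole column. SEs were recovered by dividing a fold change by the normal quantile that its p-value gives. With 3 libraries in each of 3 groups taken as given, group levels followed from the deposited mean and the fold changes of both clones. A difference was divided by its SE, the root of the added squares of its parts, and for DUS2L minus DUS1L of each knockout's mean. Wild-type spread was counted in each part, although it is shared. Shared wild-type variance was split off with a negative binomial dispersion solved from the SEs. The calculations were run on simulated fold changes drawn from the recovered errors. This checks the arithmetic and not whether those errors fit the libraries. Tools were numpy 2.4.6, scipy 1.17.1, pandas 2.3.3 and matplotlib 3.10.9 under Python 3.11.15.

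Members and lists were chosen with earlier results of these data known. Isodecoders are named by a mean of at least 100 in any table, which took in all 7, and like families are the nearest 3 of other amino acids. An edgeR fit needs counts per library and was not run. Intervals cover the spread between libraries.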

Additional observations from a re-analysis of the deposited data

Results flagged for a closer look

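In all, 8 differences between knockouts were flagged because the mean fold change over the DUS2L clones differed from that over the DUS1L clones by the test of the difference, with adjusted p-values from 0.00189 to 0.0375 over the whole table. By the same test 23.9% of all anticodon entries were lower and 1.49% higher, and of all isodecoder entries 26.1% were lower and 11.7% higher. Families and their isodecoders draw on the same reads, so the 8 are not independent. DUS2L minus DUS1L was -2.32 for Pro-AGG, -2.44 for Pro-CGG, -2.47 for tRNA-Pro-AGG-1-1, -1.60 for tRNA-Pro-AGG-2-4, -2.76 for tRNA-Pro-CGG-1-1, -2.27 for tRNA-Pro-CGG-2-1, 1.89 for tRNA-Pro-TGG-1-1 and -1.50 for tRNA-Pro-TGG-3-4. Of these 8, only those of tRNA-Pro-CGG-1-1 and tRNA-Pro-TGG-1-1 still passed when each knockout was centred on its median nuclear entry, and tRNA-Pro-AGG-2-4 then stood at -0.77 and tRNA-Pro-TGG-3-4 at -0.67. The comparison was chosen after the data were seen, and both knockouts rest on the same wild-type libraries. No group had the 4 samples with values that a check for outlying samples needs.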

How the results depend on the processing

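Calls of the DUS2L clone #1 depended most on scaling. There, 2 families and 5 isodecoders passed, against 1 and 3 at an adjusted p of 0.01, 1 and 3 with the spike-ins as reference, and 0 and 1 when centred on the median nuclear entry. In DUS2L clone #2 the counts of 1 family and 3 isodecoders stood under every one of these settings. Shares of all entries called were not taken at the stricter threshold or under either reference. The counts there describe the proline entries alone and cannot be set against the whole table. The isodecoder passing in DUS1L clone #2 was lost at an adjusted p of 0.01 (0), and 1 family passed there unadjusted, where 12.9% of all entries did. The isodecoder passing in DUS3L clone #2 was lost (0) at 0.01, with a mean of at least 100, when centred and with the spike-ins. Unadjusted p gave 2 isodecoders in each DUS3L clone. In clone #1 20.9% of all entries passed so, and for clone #2 that share was not taken. By value, Pro-AGG in DUS2L clone #1 was -0.93 and Pro-CGG -0.45 when centred, and Pro-CGG -1.28 with the spike-ins, none past the threshold. Small values changed sign without a call, namely Pro-AGG in DUS3L clones #1 and #2 (0.12 and -0.0714 when centred), Pro-TGG in DUS3L clone #2 (0, being itself the median family), tRNA-Pro-AGG-1-1 in DUS1L clone #1 (-0.0138 when centred) and in DUS3L clone #1 (-0.16 with the spike-ins) and tRNA-Pro-TGG-2-1 in DUS1L clone #2 (0.0147 when centred). DUS2L minus DUS1L no longer passed when centred for Pro-AGG (-1.52) and Pro-CGG (-1.64), nor with the spike-ins for Pro-CGG (-1.99), nor for tRNA-Pro-AGG-2-4, tRNA-Pro-CGG-2-1 and tRNA-Pro-TGG-3-4 under either setting, nor for tRNA-Pro-AGG-1-1 when centred. Without the shared wild-type variance Pro-TGG (-1.04) and tRNA-Pro-TGG-2-1 (-1.19) passed (adjusted p = 0.0377 and 0.0254), where the share of all entries was not taken. Summing isodecoders moved no family by more than its SE, and a log2 fold change of at least 1 moved no count. The cause of these changes was not tested. Scaling of isodecoders and the settings of DUS2L minus DUS1L were chosen after seeing the data.

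No paired analysis was possible because the tables hold no values per library, and for the same reason no replicate was left out. Depth limits the DUS3L isodecoders most, with tRNA-Pro-AGG-2-4 at 5.27 and 28.4 normalised counts in the clones and 7.65 in wild type.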

Other observations

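In DUS3L clone #2 tRNA-Pro-AGG-2-4 stood at 1.89 ± 0.86 in the authors' deposited table (adjusted p = 0.164), and clone #2 minus clone #1 was 2.43 ± 1.25 (adjusted p = 0.453), or an adjusted p of 0.0482 without the shared wild-type variance. The tRNA-Pro-AGG-2-4 share of the AGG family was 8.31% in DUS3L clone #1 and 37.7% in clone #2, against 11.7% in wild type. Among the DUS1L clones its share was 24.5% in clone #1 and 9.21% in clone #2, against 17.4% in wild type, its isodecoder having 8 genes.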
